A study of Homo sapiens with 8 samples.

Results

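The let-7 family is a group of microRNAs with near-identical sequences, and 7 of its genes were measured here through 1 feature each: MIRLET7B, MIRLET7C, MIRLET7D, MIRLET7E, MIRLET7G, MIRLET7I and MIR98. They were taken by gene symbol from an array of 207 features, each spotted 3 times, of which 67 carried a symbol. The cells were K562, a human myeloid leukaemia line with erythroid potential, adapted to the serum-free medium StemLineII. Cells of day 0 were not stimulated, and the cells of days 2, 4, 6, 8, 10 and 22 had been kept in that medium with 2 cytokines, interleukin 3 (IL3, 50 ng/ml) and erythropoietin (EPO, 7.5 U/ml), to induce erythroid differentiation. Each time point had 1 array and no replicate, so the number of arrays limits the precision of every comparison. The extraction protocol speaks of CD34 cells where all other labels speak of K562, and K562 was taken as the source.

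let-7 microRNAs bind messenger RNAs through bases 2 to 8 of the mature strand, the seed, and repress genes of growth and of the undifferentiated state, among them the RAS genes, HMGA2 and LIN28B. The RNA-binding proteins LIN28A and LIN28B in turn block the processing of let-7 precursors, so mature let-7 is scarce in embryonic cells and more abundant in differentiated ones. In the red cell lineage the LIN28B and let-7 axis is known for its part in the switch from fetal to adult haemoglobin.

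The mature 5p sequences are shown because they carry what joins the members and what tells them apart. They come from RefSeq on GRCh38.p14, where all 7 symbols had an entry, and capitals mark the seed.
let-7b-5p: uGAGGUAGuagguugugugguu
let-7c-5p: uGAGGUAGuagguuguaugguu
let-7d-5p: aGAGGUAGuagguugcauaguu
let-7e-5p: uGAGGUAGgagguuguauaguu
let-7g-5p: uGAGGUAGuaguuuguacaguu
let-7i-5p: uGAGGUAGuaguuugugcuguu
miR-98-5p: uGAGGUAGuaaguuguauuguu

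All 7 share the seed GAGGUAG, which 11 of the 2370 mature microRNAs of that table hold at bases 2 to 8 (0.464%), and all 7 are 22 bases long. Counted from 1 at the 5′ end with let-7c as the reference, let-7b differs by A17G alone. let-7e carries U9G and G19A, and miR-98 carries G11A and G19U. let-7d carries U1A, U16C and G19A. let-7g carries G12U, U18C and G19A, and let-7i carries G12U, A17G, U18C and G19U. let-7i shares G12U and U18C with let-7g and differs from it by A17G and A19U. Between any 2 members 1 to 6 bases differ. Neither the arm a probe was made for nor its sequence was used here, so how far a probe also read other members was not tested. None of the 3p arms of the 7 genes holds this seed.

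The genes lie apart in the genome. In the RefSeq annotation MIRLET7B, on chromosome 22, is within 10 kb of MIRLET7A3. MIRLET7D, on chromosome 9, is that near to MIRLET7A1 and MIRLET7F1, MIRLET7C (chromosome 21) to MIR99A, MIRLET7E (chromosome 19) to MIR99B and MIR125A, and MIR98 (chromosome X) to MIRLET7F2. MIR98 lies within the span of HUWE1, a ubiquitin ligase gene, and MIRLET7G (chromosome 3) within that of WDR82. MIRLET7I is on chromosome 12, within its host transcript MIRLET7IHG. Of a list of 12 further genes, made of let-7 copies, the microRNAs that neighbour let-7 genes and MIR202, 0 matched a named feature, so no comparison with them was made.

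Values are given as signal and as level. The signal is the mean of 3 spots in Cy3 units above the dimmest spot of the same array, because the array means had been subtracted before deposit and the true zero is unknown. The level is the log2 value after background correction and quantile normalization, which gives every array the same distribution, so a level is relative to the other features of its array. The signal of the median feature was 110, 255, 326, 130, 46.3, 61.3 and 63.3 units at days 0, 2, 4, 6, 8, 10 and 22, and the brightest feature went from 12423 units at baseline to 537 at the last time point. Signals can therefore not be compared between arrays without a scaling, and the scaling is a choice. The day 15 column equalled the mean of the columns of days 10 and 22 in all 621 rows and was left out. Of 8 red cell microRNAs listed, 4 (MIR96, MIR22, MIR15A and MIR15B) were named features, and the others, MIR451A, MIR144, MIR486-1 and MIR16-1, were not analysed here. Over the 7 arrays the level of MIR15B was 9.20, 8.75, 10.11, 9.95, 10.39, 9.95 and 7.80 and that of MIR15A 8.00, 7.84, 8.64, 8.28, 7.70, 7.65 and 6.71. MIR22 had 6.81, 6.68, 7.05, 7.01, 7.68, 7.39 and 6.39, and MIR96 had 7.49, 6.87, 6.64, 7.03, 7.53, 7.39 and 7.14. All 4 were lower on the last array than on the first, but MIR15B and MIR22 were above baseline from day 4 to day 10, and these are single values with no test. On some arrays MIR22, MIR96 and MIR15A were not above the foreign tissue markers given next.

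As a reference for signal without expression, the 6 of 12 listed markers of foreign tissues that were named features were used (MIR429, MIR375, MIR367, MIR371A, MIR372 and MIR373). Their levels ran from 6.15 to 7.60 over the arrays. The highest marker level was 7.44, 7.30, 6.85, 7.28, 7.08, 6.99 and 7.60 at days 0, 2, 4, 6, 8, 10 and 22. MIR22 lay below it on days 0, 2, 6 and 22, MIR96 on days 2, 4, 6 and 22, and MIR15A on day 22. Their expression is not shown on those arrays. MIR15B lay above it on every array. MIRLET7B, MIRLET7E, MIRLET7G and MIRLET7I gave more signal than all 6 markers on 7 of 7 arrays. MIRLET7C did so on 6 arrays, with 4 of 6 markers below it on day 22, and MIRLET7D on 6, with 5 of 6 markers below it on day 0. Some of these margins were smaller than the SD of the spots. MIRLET7C gave 152 ± 9.85, 49.3 ± 6.81 and 67.7 ± 16.9 units on days 0, 8 and 10. The brightest marker gave 147, 46.3 and 56.7. MIRLET7D gave 48.7 ± 4.04 and 87.7 ± 16.5 on days 8 and 22, against 46.3 and 87. Expression of the 2 is not firmly shown on those arrays. MIR98 was above all 6 on days 4 and 10 only, so its expression is not shown on the other 5 arrays.

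**Figure D1:**
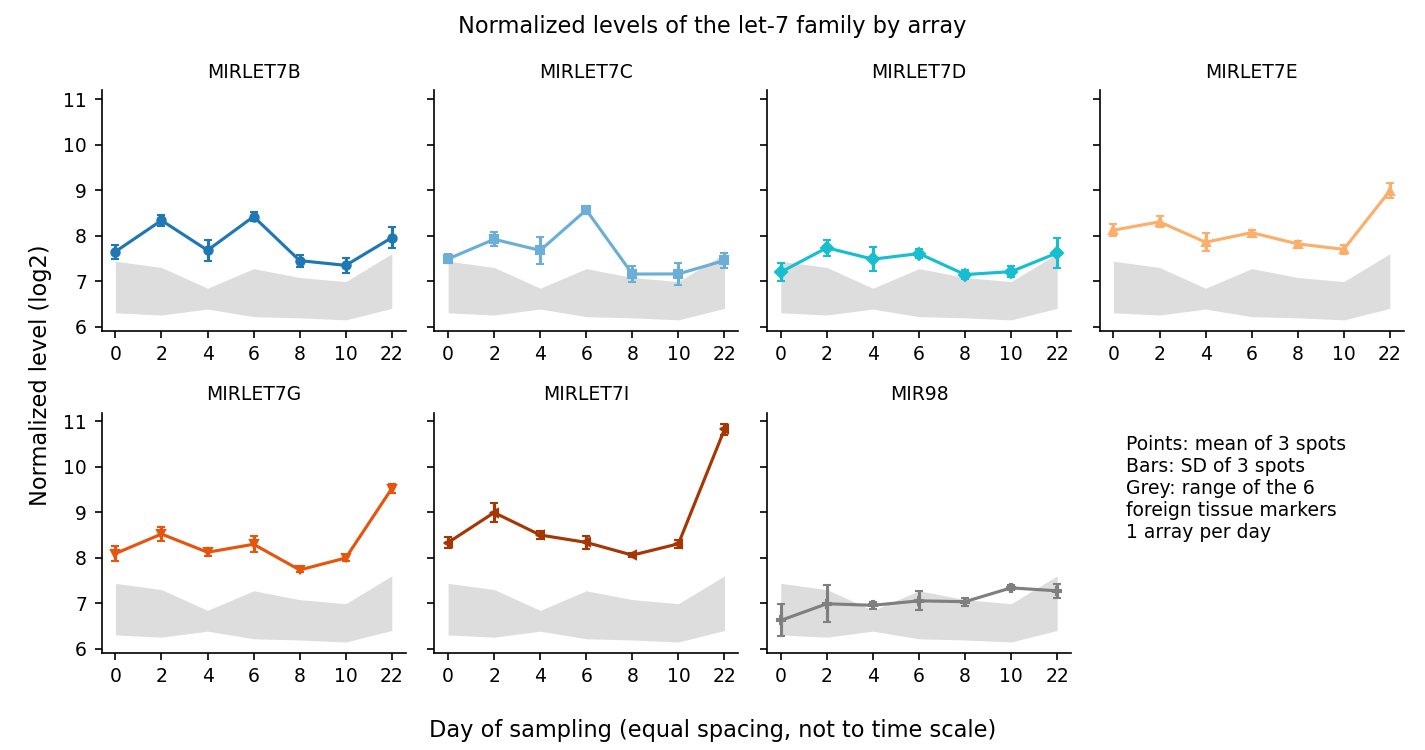
Normalized log2 level of each let-7 gene on 7 arrays (days 0 to 22, equal spacing), as the mean of 3 spots with the SD of the spots; the grey band is the range of 6 foreign tissue markers. MIRLET7I, MIRLET7G and MIRLET7E stand highest on day 22, at 10.83, 9.52 and 8.99, MIRLET7B and MIRLET7C peak on day 6 with this normalization, and MIR98 runs along the band.

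MIRLET7I had the widest range of the 7 members. Its level was 8.34, 9.0, 8.50, 8.34, 8.06, 8.31 and 10.83 at days 0, 2, 4, 6, 8, 10 and 22. The first 6 arrays thus lay within 1 log2 step of each other and day 22 stood above all of them. In signal the same feature gave 310 ± 24.8, 838 ± 83.3, 786 ± 46.7, 315 ± 22.7, 148 ± 9.07, 217 ± 14.8 and 333 ± 35.9 units at these times (SD, n = 3 spots). The signal of day 22 was therefore close to that of day 0, at 108% of it, while the summed signal of all features on day 22 was 26.9% of that on day 0. That sum is weighted toward the brightest features, and the median feature went from 110 to 63.3 units. MIRLET7I made up 0.502% of the array's signal on day 0 and 2.00% on day 22, and its place among 207 features, counted from the dimmest, went from 186 to 205. The SD over spots covers spotting and reading, not cultures or arrays.

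MIRLET7G, whose mature strand is 2 bases from that of let-7i, also stood highest on day 22, with a smaller excursion. Its level was 8.09, 8.52, 8.12, 8.30, 7.73, 8.00 and 9.52 on days 0, 2, 4, 6, 8, 10 and 22. Its signal was 260 ± 33.7, 653 ± 60.0, 648 ± 28.0, 306 ± 29.5, 97.3 ± 5.77, 143 ± 9.71 and 207 ± 14.6 units on those days (SD, n = 3 spots). As for MIRLET7I, day 8 was lowest and day 22 highest in level, while in signal days 2 and 4 were highest.

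MIRLET7E, which lies with MIR99B and MIR125A, had levels of 8.12, 8.31, 7.86, 8.07, 7.82, 7.70 and 8.99 on days 0, 2, 4, 6, 8, 10 and 22. Its signal was 263 ± 29.9, 573 ± 45.0, 571 ± 56.7, 267 ± 11.8, 108 ± 7.57, 106 ± 9.29 and 160 ± 16.8 units (SD, n = 3 spots). Day 22 was again the highest array in level, above day 10 by 1.29 on the log2 scale, and 60.6% of day 0 in signal.

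MIRLET7B and MIRLET7C, which differ by 1 base, had their highest level on day 6 instead. For MIRLET7B that depended on the scaling, since after median centring its difference from day 0 was 0.73 at day 2 and 0.67 at day 6, and without normalization 1.48 and 0.83. MIRLET7C was highest at day 6 after median centring (0.97) but at day 4 without normalization (1.39). MIRLET7B had levels of 7.65, 8.34, 7.68, 8.42, 7.45, 7.35 and 7.96 on days 0, 2, 4, 6, 8, 10 and 22. MIRLET7C had levels of 7.49, 7.92, 7.68, 8.57, 7.16, 7.16 and 7.46. From day 6 to day 8 the level of MIRLET7B fell by 0.97 and that of MIRLET7C fell by 1.41 on the log2 scale, and neither stood above its own day 6 level on day 22. In signal MIRLET7B gave 176 ± 22.2, 585 ± 37.7, 514 ± 75, 332 ± 22.5, 64.3 ± 11, 80.0 ± 12.2 and 104 ± 12 units, and MIRLET7C gave 152 ± 9.85, 470 ± 34.6, 502 ± 95.3, 364 ± 26.4, 49.3 ± 6.81, 67.7 ± 16.9 and 79.7 ± 8.74 (SD, n = 3 spots). On day 22 they gave 59.2% and 52.4% of their day 0 signal.

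MIRLET7D, which shares its stretch of chromosome with MIRLET7A1 and MIRLET7F1, had the smallest range of levels. Its level was 7.20, 7.74, 7.48, 7.61, 7.15, 7.21 and 7.62 on days 0, 2, 4, 6, 8, 10 and 22, a range of 0.59. Its signal was 123 ± 19.7, 424 ± 39.3, 450 ± 92.6, 195 ± 13.7, 48.7 ± 4.04, 70 ± 10.1 and 87.7 ± 16.5 units (SD, n = 3 spots). The SD of its spots on day 22 was 0.34 on the log2 scale, which its differences between arrays have to be read against.

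MIR98 was the member closest to the foreign tissue markers. Its level was 6.62 on day 0 and 6.99, 6.96, 7.05, 7.04, 7.34 and 7.27 on days 2, 4, 6, 8, 10 and 22. It was thus above day 0 on 6 of 6 later arrays, as were 11.6% of all features, and after 75th percentile scaling on 5. Its spots differed by an SD of 0.35 on day 0 and 0.41 on day 2, so the difference of 0.37 between those 2 arrays is of the size of the scatter between spots. Its signal was 81.7 ± 22.7, 247 ± 94.8, 284 ± 19.2, 125 ± 24.8, 44.7 ± 3.06, 79.7 ± 4.16 and 71.0 ± 6.56 units at days 0, 2, 4, 6, 8, 10 and 22 (SD, n = 3 spots).

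**Figure D2:**
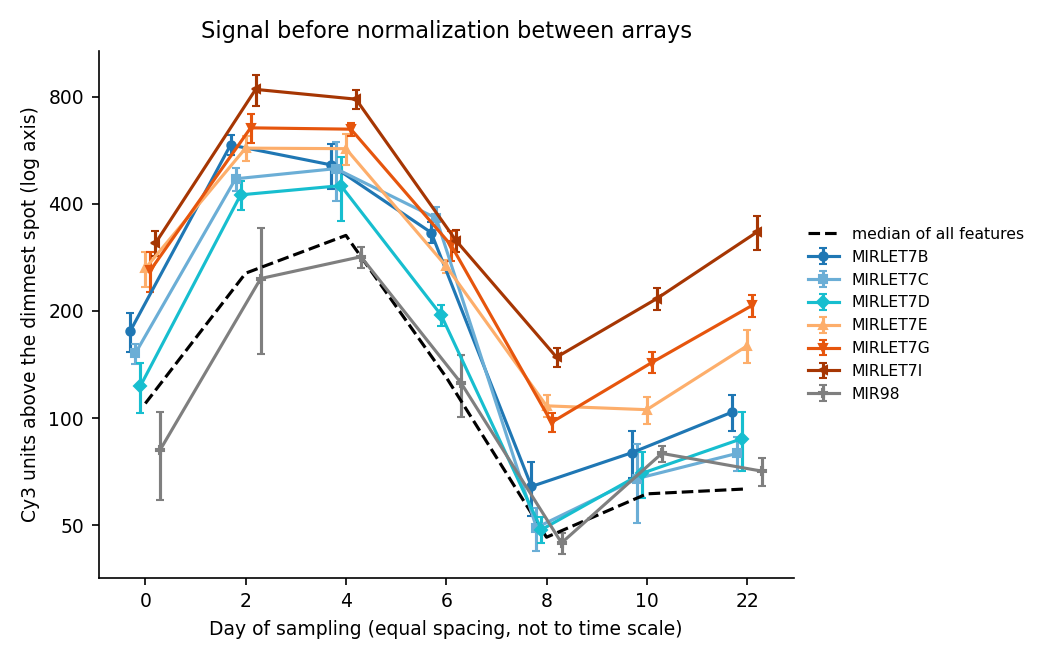
Signal of the 7 let-7 genes in Cy3 units above the dimmest spot of each array (log axis; means of 3 spots with SD, days 0 to 22 at equal spacing), with the median of 207 features as a dashed line. All members and the median feature are higher on days 2 and 4 and lower on day 8 than on day 0; MIRLET7I is back at 333 units on day 22 against 310 on day 0, while the median feature is at 63.3 against 110.

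After quantile normalization, more members lay above day 0 than below it on days 2 to 6, and fewer on days 8 and 10. These counts take only the sign, and some differences were smaller than the SD of the spots. They were 0.03 for MIRLET7B and MIRLET7G on day 4 and 0.0037 for MIRLET7I on day 6. On day 10 they were -0.03 for MIRLET7I and 0.01 for MIRLET7D. On day 2, 7 of 7 members had a higher level than on day 0, where 52.7% of all features did. At day 4 the count was 6 of 7 (50.2% of features) and at day 6 also 6 of 7 (46.9%). Only MIR98 was above baseline at day 8 (1 of 7, against 45.9% of features), joined by MIRLET7D at day 10 (2 of 7, 47.3%). The day 22 array had 6 of 7 above baseline (53.6%), all but MIRLET7C. The median difference of the members was 0.43, 0.17, 0.41, -0.28, -0.10 and 0.65 on days 2, 4, 6, 8, 10 and 22, and that of all features was 0.02, 0.0026, -0.05, -0.03, -0.03 and 0.07. After 75th percentile scaling 6, 2, 4, 1, 3 and 7 members were above day 0 on these days, where 34.3%, 24.2%, 35.7%, 53.1%, 56.5% and 70% of features were, so the count on day 4 came near the share of all features. Without normalization 7, 7, 7, 0, 1 and 1 were, against 73.4%, 93.2%, 51.2%, 11.6%, 12.6% and 4.35% of features. No test applies to such pairs of single arrays, and all 6 share the day 0 array.

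A difference of at least 1 on the log2 scale from day 0 was reached 3 times. MIRLET7C was higher by 1.08 on day 6, when 1.93% of features were higher by at least 1, and after median centring its difference was 0.97. MIRLET7I was higher by 2.49 and MIRLET7G by 1.43 on day 22, when 8.21% of features were higher by at least 1. On days 2, 4, 8 and 10, 0 of 7 members were higher by 1, where 3.38%, 4.35%, 2.42% and 1.93% of features were. On the 6 later arrays 0 of 7 were lower by 1, where 5.8%, 1.93%, 0.483%, 1.93%, 0.966% and 12.1% of features were. Of 207 features MIRLET7I had the second largest difference between day 22 and day 0 and the largest between day 22 and day 10, at 2.52. The quantile step sets the size of these values: in signal, day 22 was 1.54 times day 10 for MIRLET7I, 1.45 times for MIRLET7G, 1.51 times for MIRLET7E and 1.03 times for the median of all features. After median centring the difference of MIRLET7I from day 0 on day 22 was 0.87, after 75th percentile scaling 0.98 and without normalization 0.06, so after none of these did a member pass 1 on that day.

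The make-up of the family signal within each array does not depend on a scaling factor between arrays, though it does depend on where zero is set. In the summed signal of the 7 members, the share of MIRLET7I was 22.7%, 22.1%, 20.9%, 16.5%, 26.4%, 28.4% and 32% at days 0, 2, 4, 6, 8, 10 and 22. That of MIRLET7C was 11.1%, 12.4%, 13.4%, 19.1%, 8.79%, 8.87% and 7.64%. MIRLET7B had 12.9% at baseline, 17.4% at day 6 and 9.97% at day 22. The share of MIRLET7I was thus lowest and those of MIRLET7B and MIRLET7C highest at day 6, while at day 22 that of MIRLET7I was highest and theirs were lowest. MIRLET7G stayed between 16.1% and 19.9%. Probes differ in how well they bind, so a share describes this signal and not the number of molecules.

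The signal ratio of MIRLET7I to MIRLET7C was 2.04, 1.78, 1.57, 0.864, 3.01, 3.20 and 4.18 over the same 7 arrays. The last of these values rests on a MIRLET7C signal below that of 2 of the 6 foreign tissue markers, so it has no firm denominator. On days 0, 8 and 10 MIRLET7C exceeded the brightest marker by less than the SD of its spots. By contrast the ratio of MIRLET7B to MIRLET7C stayed between 0.911 and 1.31. After quantile normalization the levels over all 7 arrays were put into 2 loose sets, chosen after their values were seen and therefore not tested: MIRLET7E, MIRLET7G and MIRLET7I in one, MIRLET7B, MIRLET7C and MIRLET7D in the other. The place of MIRLET7D is not firm, with a Pearson r of 0.68 with MIRLET7G against 0.70 with MIRLET7C. After 75th percentile scaling these were 0.76 and 0.72. After median centring MIRLET7E had 0.63 with MIRLET7B and 0.61 with MIRLET7I. Without day 22 the sets are not distinct either. The Pearson correlation of levels was then 0.91 for MIRLET7D with MIRLET7G, against 0.90 with MIRLET7B and 0.81 with MIRLET7C. For MIRLET7E it was 0.80 with MIRLET7G, 0.79 with MIRLET7B and 0.70 with MIRLET7I. The summed signal of the first set over that of the second was 1.85, 1.40, 1.37, 0.996, 2.18, 2.14 and 2.58 on days 0, 2, 4, 6, 8, 10 and 22. With the median of the foreign tissue markers as zero, the ratio was 2.63, 1.57, 1.65, 0.995, 3.11, 3.20 and 4.87. In both versions it was lowest on day 6 and highest on day 22. On day 22, however, MIRLET7C was below 2 of the 6 foreign tissue markers. MIRLET7D, at 87.7 ± 16.5 units (SD, n = 3 spots), was level with the brightest marker at 87. The day 22 ratio of the sets therefore has no firm denominator either. The log2 level of the first set exceeded that of the second by 0.04 at day 6 and by 2.10 at day 22. With the other 3 scalings it was 1.20 at day 22. These differ only by a constant per array, so they give 1 and the same value by construction. All 7 members together made up 2.21%, 5.01%, 3.47%, 3.72%, 2.02%, 2.92% and 6.27% of the signal of their array, in order of time. The last share is not a gain in signal. On day 22 the summed signal of the members was 76.4% of that on day 0, and that of all features was 26.9%. The sum of all features is weighted toward its brightest ones, and the brightest went from 12423 to 537 units. The median feature went only from 110 to 63.3 units, so the 26.9% does not describe a typical feature.

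**Figure D3:**
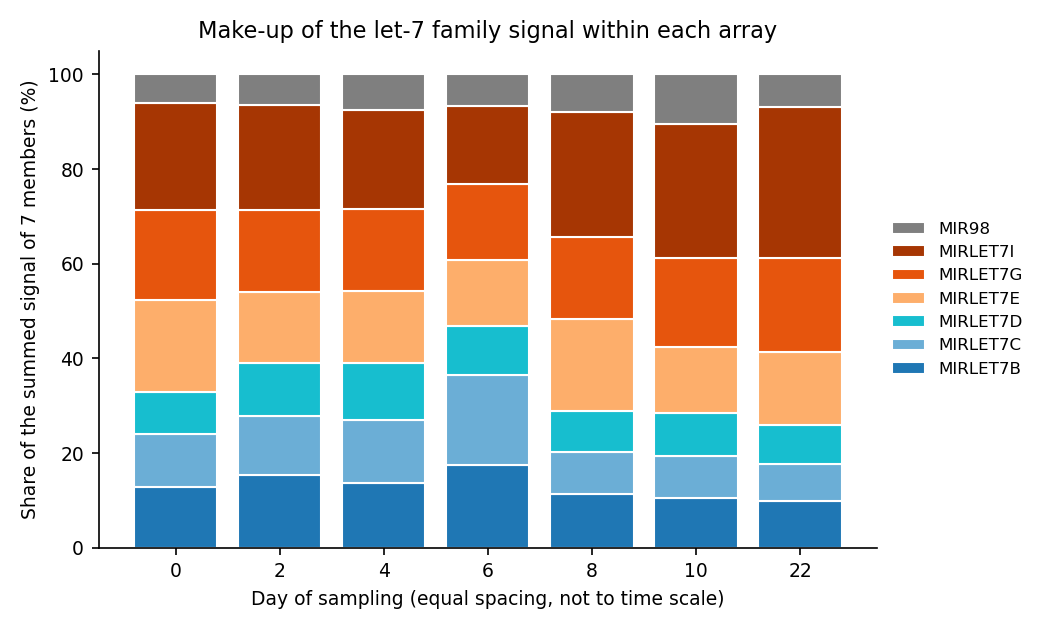
Share of each let-7 gene in the summed signal of the 7 members, in percent, for each of 7 arrays (days 0 to 22, stacked bars that add up to 100%). The share of MIRLET7I is 16.5% on day 6 and 32% on day 22, and that of MIRLET7C is 19.1% and 7.64%.

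Whether a member moved in 1 direction over the whole course was tested with limma across all 207 features, as a line over the order of the time points. By this test 0 of 7 members rose and 0 fell, where 0% of all features rose and 0.483% fell at an adjusted p under 0.05, and 0 of 7 members had an unadjusted p under 0.05, where 22 of 207 features did, 10 of them rising (4.83%) and 12 falling. The fitted change over the course, from baseline to day 22, was 1.55 ± 0.82 for MIRLET7I (SE, n = 7 arrays, adjusted p = 0.533, limma with Benjamini-Hochberg adjustment). It was 0.81 ± 0.56 for MIRLET7G, 0.45 ± 0.47 for MIRLET7E, 0.01 ± 0.34 for MIRLET7D, -0.23 ± 0.47 for MIRLET7B and -0.47 ± 0.52 for MIRLET7C (SE). MIR98 had 0.60 ± 0.27 (SE, adjusted p = 0.462, limma with Benjamini-Hochberg adjustment), the smallest p of the family, though on 5 of the 7 arrays, days 0 and 22 among them, its signal was not above all 6 foreign tissue markers. The median of the 7 was 0.45, against 0.03 over all features.

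The positive values of MIRLET7I, MIRLET7G and MIRLET7E rested on the day 22 array: without it their fitted changes were -0.67, -0.57 and -0.71, and 1 of 7 members, MIR98, had a positive one, against 45.9% of all features, whose median was -0.06. Their sign also depended on the scaling. Without normalization, which moved the median of all features from 0.03 to -1.24, all 7 members had negative fitted changes, from -0.92 for MIR98 to -2.08 for MIRLET7C, with 0 passing and a median of -1.67. After median centring (median of all features 0.24) the values were 0.43 for MIRLET7I, 0.04 for MIRLET7G and -0.22 for MIRLET7E. After 75th percentile scaling (0.46) they were 0.64, 0.26 and -0.0025. MIRLET7B and MIRLET7C were negative under all 4 scalings. MIR98 was positive in 3 and negative without normalization.

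**Figure D4:**
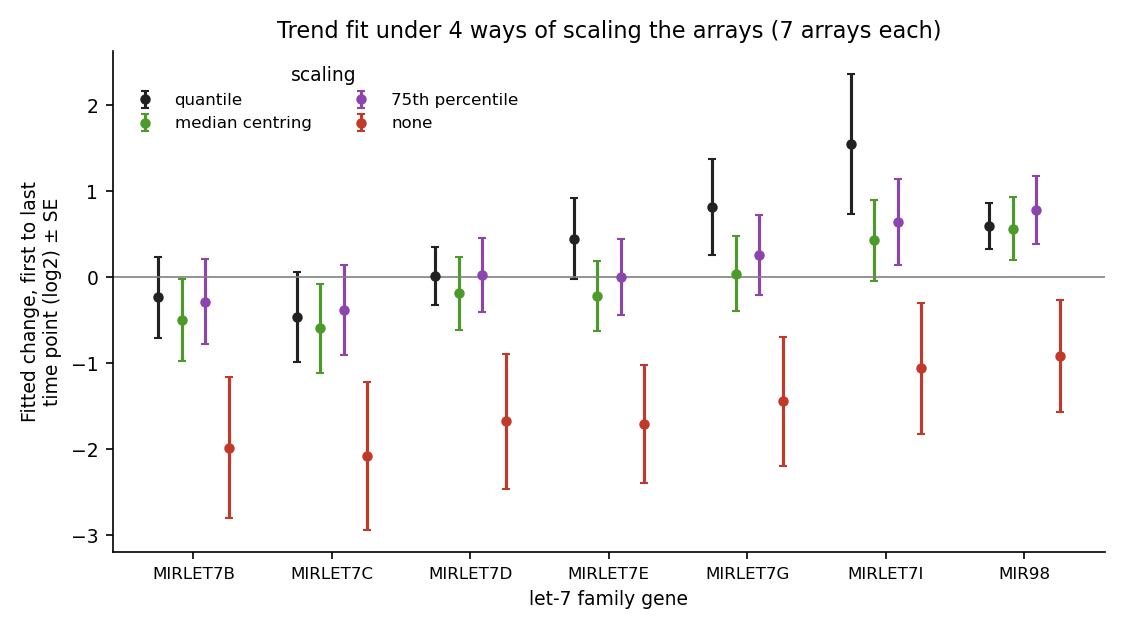
Fitted log2 change over the course, from baseline to day 22, for each let-7 gene (limma, 7 arrays, bars are SE) under 4 ways of scaling the arrays. After quantile normalization MIRLET7I is at 1.55 and MIRLET7C at -0.47; without normalization all 7 values lie below 0, and 0 of 7 pass the test in any of the 4.

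The arrays of days 8, 10 and 22 were also set against those of days 0, 2, 4 and 6. This cut was taken from the pattern among the spots of these same arrays. Time and set of arrays cannot be told apart in it. The order of brightness among the spots of a feature varied between arrays: in order of time, spot 3 exceeded spot 1 in 3, 7, 6, 3, 0, 2 and 1 of the 7 members and in 36.7%, 91.8%, 51.2%, 73.9%, 33.3%, 17.9% and 44% of all features. The early and late arrays overlapped in that share, and its part in the results was not tested. By limma 0 of 7 members were higher and 0 lower on the later arrays at an adjusted p under 0.05, against 0% and 0.483% of all features. MIRLET7C had a mean level of 7.91 on the early and 7.26 on the later arrays, a difference of -0.66 ± 0.27 (SE, n = 4 and 3 arrays, adjusted p = 0.489, limma with Benjamini-Hochberg adjustment). It was the 1 member with an unadjusted p under 0.05, as were 4.83% of features in this direction. Its lowest early level, 7.49 on day 0, was above its highest late one, 7.46 on day 22. So its groups did not overlap, as in 6.28% of all features in this direction, but after 75th percentile scaling they did. MIRLET7B had a difference of -0.44 ± 0.27 and MIRLET7D one of -0.18 ± 0.21 (SE). MIRLET7E, MIRLET7G, MIRLET7I and MIR98 had 0.08 ± 0.32, 0.16 ± 0.40, 0.52 ± 0.60 and 0.31 ± 0.19 (SE), and their early and late arrays overlapped, where 4.83% of features lay wholly higher on the later ones. With median centring MIR98 lay wholly higher there, as did 15.9% of features, and so it did with 75th percentile scaling, as did 18.8%. Without day 22 the differences of MIRLET7E, MIRLET7G and MIRLET7I were -0.35, -0.42 and -0.39. Without normalization 5 of 7 members, all but MIRLET7I and MIR98, were lower on the later arrays in the limma test, as were 62 of 207 features, with a difference of -1.83 and an adjusted p of 0.0283 for MIRLET7C after Benjamini-Hochberg adjustment.

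Likeness between members was described by the Pearson correlation of their levels over the 7 arrays, which share their normalization. The 21 pairs had r from -0.18 to 0.98 with a median of 0.47, and all pairs of features had a median of -0.0071. MIRLET7G and MIRLET7I were most alike (r = 0.98), followed by MIRLET7E with MIRLET7G (0.96) and with MIRLET7I (0.94), and then by MIRLET7B with MIRLET7C (0.89) and with MIRLET7D (0.88). MIRLET7C and MIRLET7I had r = -0.03. MIR98 had no r above 0.40 with any member. Without day 22 the r of MIRLET7G and MIRLET7I was 0.89, that of MIRLET7C and MIRLET7I 0.39, and the median 0.70. After median centring the 3 pairs among MIRLET7E, MIRLET7G and MIRLET7I had r of 0.82, 0.61 and 0.87. Without normalization the median over the 21 pairs was 0.93, against 0.76 for all pairs of features.

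After quantile normalization the profiles did not follow the count of differing bases in a simple order. The pair that differs by 1 base, MIRLET7B and MIRLET7C, had r = 0.89 and the pair MIRLET7G and MIRLET7I, 2 bases apart, had 0.98. But MIRLET7C is 2 bases from both MIRLET7E (r = 0.14) and MIR98 (r = -0.18), while MIRLET7E and MIRLET7I, 5 bases apart, had r = 0.94. The day 22 array carries much of this contrast: without it MIRLET7C had r = 0.59 with MIRLET7E and -0.12 with MIR98, and MIRLET7E had 0.70 with MIRLET7I. After median centring these 3 pairs had 0.41, -0.38 and 0.61. Without normalization they had 0.93, 0.91 and 0.93, where all pairs of features had a median of 0.76. MIR98 gave more signal than all 6 foreign tissue markers on only 2 of 7 arrays. MIRLET7D and MIRLET7I, the pair with 6 differing bases, had 0.56. Pairs with 3 differing bases had r from -0.07 to 0.96 and pairs with 4 from -0.03 to 0.88.

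**Figure D5:**
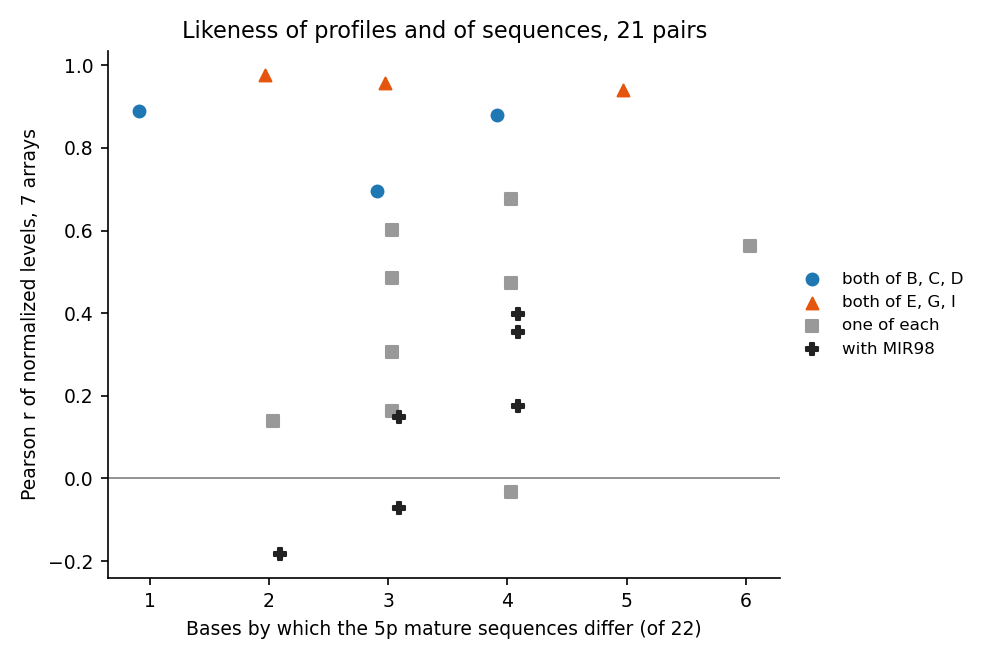
Pearson r of normalized levels over 7 arrays against the number of differing bases in the 5p mature sequences, for 21 pairs of let-7 genes; B, C, D, E, G and I stand for the MIRLET7 genes. Pairs among MIRLET7E, MIRLET7G and MIRLET7I lie at 0.94 to 0.98 with 2 to 5 differing bases, and pairs with MIR98 lie at 0.40 or below.

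Among the 60 named features outside the family, the mean level of the 7 members was most like that of MIR337 (r = 0.91), MIR325 (0.91), MIR449A (0.87), MIR33A (0.87) and MIR335 (0.86). MIR337 and MIR335 lay below the highest foreign tissue marker level on every array. MIR325 lay above it on day 2 only, at 7.34 against 7.30. The expression of these 3 is not shown on the arrays where they lay below it, so r with them describes signal near the markers. The levels of MIR449A at days 0, 10 and 22 were 7.86, 7.90 and 9.78, and those of MIR33A were 9.27, 8.81 and 11.13, so both share the high day 22 array of MIRLET7I. Without day 22 MIR325 came first (r = 0.96), and MIR449A and MIR33A had 0.64. For single members the nearest named feature was MIR325 for MIRLET7B (0.90), MIRLET7C (0.64) and MIRLET7D (0.88). It was MIR33A for MIRLET7E (0.95), MIR449A for MIRLET7G (0.96) and MIRLET7I (0.98), and MIR95 for MIR98 (0.94). Among named features MIRLET7C was nearer to a family member, MIRLET7B, than to any outside it, and so were MIRLET7E and MIRLET7G. The best match of MIR98 within the family, MIRLET7I, was only in place 37 of 206 features.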

How the data were processed

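The deposited values are Cy3 intensity of 1-colour arrays from which the authors, or their software, had subtracted each array's mean, as the column means of 0 show. Per the labels' protocols, Ambion kits served for miRNA isolation and for labelling. How the slides were scanned and their background treated is not given in the sources used here, and the labels do not say whether time points came from separate cultures, so p-values measure only the scatter between these arrays.

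Sets of 3 consecutive rows were read as spots of 1 feature. Symbols came from GEO's platform annotation and sequences from RefSeq. The values got normexp in limma 3.58.1 (R 4.3.3) with an offset of 50, log2, quantile normalization and the mean of 3 spots. Trend and late against early arrays were fitted by lmFit and eBayes over all 207 features (threshold 0.05, Benjamini-Hochberg). The trend used each array's place among the 8 deposited time points, with the slope times 7 steps as the fitted change. The fits were tested on simulated data. Figures used matplotlib 3.10.9 (Python 3.11.15).

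All 7 members are named. The rule for other names took the 5 features most like the family mean, the nearest to each member and listed neighbours of let-7 genes. The members, lists and tests were chosen with earlier results of these data known. Alternatives covered scaling, background, offset, a filter on dim features (all 7 members passed), single spots, each array left out, the day 15 column, time scales and a term for days 8 to 22.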

Additional observations from a re-analysis of the deposited data

How the results depend on the processing

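No paired analysis was possible because each time point had 1 array. No member passed the trend test in any of 21 alternatives. The trend count over all features was 1, and 9 without normalization, 2 after median centring, 2 after 75th percentile scaling, 3 with day 15 and 10 on sampling days. The day 15 column is the mean of days 10 and 22, so it adds no independent array to that fit. The trend count was 0 on log2 days and 0 with the term for days 8 to 22 (limma, 16 features at an unadjusted p under 0.05 in each). The late against early count was 1, and 62 without normalization. Leaving out 1 array gave 0 to 4 for the trend count (4 without day 0) and 0 to 4 for the late against early count (4 without day 22), with 18 to 33 and 13 to 16 features at an unadjusted p under 0.05 where the limma count was 0. The family median of 0.45 became -1.67 with no normalization, -0.19 with median centring and 0.027 with scaling to the 75th percentile. The 3 differences of at least 1 from day 0 became 13, 0 and 0 under these scalings. Of the 13, 5 were higher on day 2 and 6 on day 4, when 30.4% and 43.5% of all features were higher by at least 1. On day 6, 1 was higher (2.42% of features), and on day 10, 1 was lower (8.7%). The median likeness of 0.47 became 0.93 without normalization and 0.42 to 0.70 without 1 array. On day 22 the family signal was 76.4% of day 0, and 77.5% with the marker median as zero.

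Trend signs turned as follows. Without normalization MIRLET7D had -1.67, MIRLET7E -1.70, MIRLET7G -1.44, MIRLET7I -1.06 and MIR98 -0.92, after median centring MIRLET7D -0.19 and MIRLET7E -0.22, and after 75th percentile scaling MIRLET7E -0.0025. MIRLET7D had -0.24 with the second and -0.33 with the third spot alone, -0.022 with day 15, -0.24 without day 0 and -0.026 on the order of the 7 arrays used, an alternative added after seeing the data. Leaving out 1 array gave -0.72 (without day 22) to 0.028 (without day 2) for MIRLET7B, -0.33 to 0.20 for MIRLET7D, -0.71 to 0.70 for MIRLET7E, -0.57 to 1.13 for MIRLET7G and -0.67 to 2.05 for MIRLET7I, the last 4 lowest without day 22. With the term for days 8 to 22 all 7 members had positive values, MIRLET7B 1.23, MIRLET7C 1.44, MIRLET7D 0.91, MIRLET7E 1.22, MIRLET7G 2.17, MIRLET7I 3.10 and MIR98 0.67, where 54.6% of features were positive. On sampling days MIRLET7E had 0.79, MIRLET7G 1.22 and MIRLET7I 2.21, and 2 members had an unadjusted p under 0.05, as had 34 of 207 features in limma.

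In the late against early comparison, MIRLET7E had -1.34, MIRLET7G -1.28, MIRLET7I -0.99 and MIR98 -0.79 without normalization, MIRLET7E -0.22 and MIRLET7G -0.16 after median centring, and MIRLET7E -0.079 and MIRLET7G -0.022 after 75th percentile scaling. MIRLET7E had -0.0031 with the third spot and MIRLET7D 0.16 with the first spot alone. Leaving out 1 array gave -0.35 to 0.31 for MIRLET7E, -0.42 to 0.48 for MIRLET7G and -0.39 to 1.03 for MIRLET7I, each lowest without day 22. The cause of these turns was not tested.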
